A study of Mus musculus with 6 samples.

Results

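The expression of 10 genes for matrix metalloproteinases (MMPs) and their tissue inhibitors (TIMPs) was examined in intestinal adenomas of *ApcMin* and *Apc1322T* mice. The genes were chosen by symbol, with earlier results of these data known. They are *Mmp2*, *Mmp3*, *Mmp7*, *Mmp9*, *Mmp10*, *Mmp13*, *Mmp14*, *Mmp15*, *Timp1* and *Timp3*. Each of the 10 matched a single row by its Ensembl identifier among the 34866 gene rows of the deposited table, and all 10 passed the filter on low counts that left 16536 genes for testing.

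The adenomas came from C57BL/6J mice aged 100 to 120 days that were heterozygous for one of 2 germline *Apc* alleles. *ApcMin/+* mice carry a loss-of-function allele, and *Apc1322T/+* mice carry a truncation that keeps part of its function towards β-catenin. There were 3 libraries of each genotype, each from excised adenomas of 1 mouse whose RNA extractions were typically pooled. No normal intestine was among these libraries, so a level below is a level in adenomas and not a change from normal tissue. All values are from whole excised tissue, in which fewer cells of a type and less RNA per cell cannot be told apart.

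MMPs are zinc-dependent proteases that cut collagens, laminins and other proteins of the extracellular matrix, and most are secreted as inactive precursors. TIMPs bind the active site of MMPs and block it. In intestinal tumours, several MMPs are made by stromal and inflammatory cells, whereas *Mmp7* is made by the epithelium itself and, in the mouse small intestine, by Paneth cells, where its enzyme cuts the precursors of α-defensins.

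The libraries held between 23132461 and 33518324 estimated counts, and 3 counts, taken as the smallest signal that can be read, corresponded to between 0.0838 and 0.143 CPM (counts scaled to a common library size by TMM). All 7 epithelial markers were tested, and their summed level on the log2 CPM scale was 13.64 to 13.87 in *Apc1322T* and 13.35 to 13.56 in *ApcMin* libraries. All 7 had a log2 fold change below 0 (median -0.34). Of these, 5 did not overlap between the genotypes (1647 of 16536 genes in this direction). With edgeR, 4 had an unadjusted p under 0.05 (7.60% of all genes in this direction). Of the 7 markers of stratified squamous epithelium, *Krt5* (at most 14 counts in a library) and *Trp63* (at most 13) were under the filter. The summed level of the list was 2.68 to 3.12 in *Apc1322T* and 5.10 to 5.57 in *ApcMin* libraries. For 4 of the 5 tested, all 3 *ApcMin* libraries were above the 3 *Apc1322T* libraries (11.0% of all genes). With edgeR, 4 had an unadjusted p under 0.05, all higher in *ApcMin* (7.49% of all genes). *Krt14* (edgeR adjusted p = 0.0485) was the only gene of all 16536 with an adjusted p under 0.05. The part of these differences in the results below was not tested.

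No MMP or TIMP gene differed between the genotypes in edgeR's quasi-likelihood test, either at an adjusted p under 0.01 (0 of 10; 0% of all genes tested) or under 0.05 (0 of 10; 0.00605%). *Mmp3* alone had an unadjusted p under 0.05 (1 of 10, against 15.1% of all genes), on the side of higher levels in *ApcMin* (7.49% of all genes), and 0 of the 10 were on the other side (7.60%). Without *Apc1322T* replicate 1, *Mmp2* and *Mmp9* had an unadjusted p under 0.05 (24.4% of all genes), and 0 of the 10 an adjusted p under 0.05 (1.22%). DESeq2's Wald test also called 0 of the 10, where it called 1.11% of all genes with an adjusted p. It gave *Mmp2* and *Mmp3* an unadjusted p under 0.05, as it did 2888 of 25171 genes. With limma-voom, 0 of the 10 were called and 0 had an unadjusted p under 0.05. For 0 of the 10 genes were the genotypes free of overlap between libraries, against 21.0% of all genes. Libraries of the same genotype also differed from each other, and many of the 10 genes, though not all, shared an order of libraries.

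The range within a genotype was taken as its highest minus its lowest library. It exceeded the difference of the genotype means for all 10 genes in *ApcMin* and for 8 of the 10 in *Apc1322T* adenomas. A range of single libraries is a wider kind of measure than a difference of means, and can exceed it without any genotype effect. The share of all genes was not computed for this comparison, so these counts do not set the 10 genes apart. *ApcMin* replicate 1 held the highest of the 6 values for 7 of the 10 genes, against 15.2% of all genes tested. *Apc1322T* replicate 2 held the lowest for 8 of the 10, against 21.4%. Within *Apc1322T* adenomas, replicate 1 was the highest and replicate 2 the lowest library for 9 of the 10 genes, *Mmp15* being the exception in both. Within *ApcMin* adenomas, replicate 1 was the highest library for 8 and replicate 2 the lowest for 6 of the 10 genes. Over the 6 libraries the levels ranged over more than 1 log2 unit for 6 of the 10 genes, against 33.3% of all genes.

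**Figure D1:**
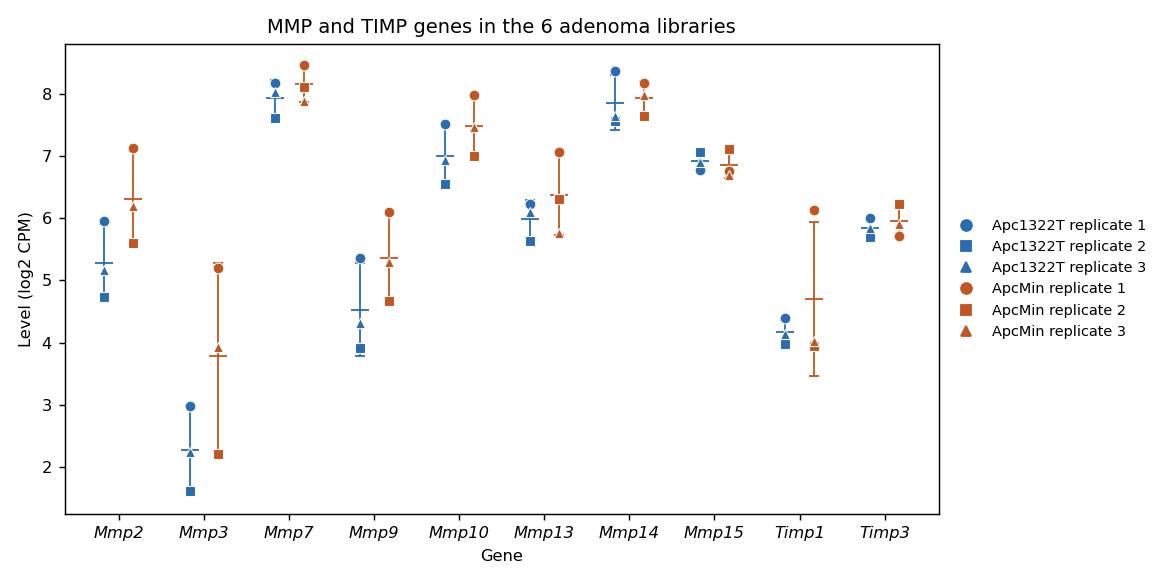
Level of each MMP and TIMP gene (log2 CPM, y axis) in the 3 *Apc1322T* and 3 *ApcMin* libraries, with the mean and SD (n = 3) of each genotype as a bar and whiskers and the replicate number as the symbol. *ApcMin* replicate 1 (circles) is the highest library for 7 of the 10 genes, and the genotypes overlap for every gene.

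Per length of exon, *Mmp7* was the most abundant of the 10 genes in every library, at 182.2 to 328.8 CPM per kb (median 251.7). *Mmp10*, which encodes stromelysin-2, came second with 54.37 to 147.3 CPM per kb (median 88.55), and was above *Mmp14* in 6 of 6 libraries. The next 5 genes in the order of their medians were *Mmp14* (38.02), *Mmp13* (26.78), *Mmp15* (21.23), *Timp1* (18.99) and *Mmp2* (16.37 CPM per kb). Each neighbour in this stretch changed places with the next in at least 1 library, so that their order is not fixed. *Mmp2* was above *Mmp9* in 6 of 6 libraries by 1.58 to 2.14 times. *Mmp9* (median 9.156), *Timp3* (7.228) and *Mmp3* (3.468 CPM per kb) closed the order and again overlapped.

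*Mmp13*, *Mmp3*, *Mmp10* and *Mmp7* lie in a cluster of 10 MMP genes on chromosome 9 of GRCm38, which spans 427 kb from 7272514 to 7699585. The bases before the start sites of these 4 genes are shown because they share short sequence matches. All 4 were highest in *ApcMin* replicate 1 and lowest in *Apc1322T* replicate 2, as were *Mmp2* and *Mmp9* on other chromosomes. A link between the matches and the levels was not tested. Each line gives 110 bases on the plus strand, 5′ to 3′, up to the base before the start site, from RefSeq on GRCm38.p6, with the letters TGANTCA and TATAAA in capitals. The regions are chr9:7445712-7445821 for *Mmp3*, chr9:7691980-7692089 for *Mmp7* (its first listed start), chr9:7502232-7502341 for *Mmp10* and chr9:7272404-7272513 for *Mmp13*.
Mmp3: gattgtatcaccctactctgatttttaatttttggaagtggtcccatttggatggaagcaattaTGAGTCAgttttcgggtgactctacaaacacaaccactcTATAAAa
Mmp7: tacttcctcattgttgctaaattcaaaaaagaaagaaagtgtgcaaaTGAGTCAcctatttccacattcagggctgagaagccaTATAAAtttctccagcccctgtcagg
Mmp10: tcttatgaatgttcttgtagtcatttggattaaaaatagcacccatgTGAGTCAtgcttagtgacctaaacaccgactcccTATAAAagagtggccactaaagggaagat
Mmp13: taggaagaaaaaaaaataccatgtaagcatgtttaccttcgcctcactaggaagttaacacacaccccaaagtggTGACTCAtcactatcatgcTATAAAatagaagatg

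TGANTCA, the core recognised by AP-1 (the Fos and Jun family of transcription factors), was searched on both strands, and TATAAA, the core of the TATA box, on the strand of the gene, in the 250 bases before the start. The first base of the AP-1 match lay 46 bases before the start of *Mmp3*, 63 before those of *Mmp7* and *Mmp10*, and 35 before that of *Mmp13*. Both motifs together were found in these 4 genes and in 0.791% of 32851 promoters of the same length. The 4 genes were shown for their matches and are neighbours in 1 cluster, so their number is no test against that share. The cluster genes outside the 10 were not searched. Each alone was found in 6.75% (AP-1) and 7.59% (TATA box) of them. Of the 10 genes 8 had a promoter entry, *Mmp2* and *Mmp9* had none, and neither motif was in the windows of *Mmp14*, *Mmp15*, *Timp1* and *Timp3*. AGGAAG, a core bound by ETS factors, was in 6 of the 8 windows on either strand (29.5% of all promoters), and CTTTGAT, bound by TCF factors, in 0 of 8 (3.21%). A match describes these letters alone and shows no binding.

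Along the cluster, neighbouring genes differed widely in level. *Mmp1a*, which the annotation calls a polymorphic pseudogene, had 0 counts in all 6 libraries. *Mmp1b* and *Mmp27* had at most 4 counts in any library. *Mmp10* lies between *Mmp1a* and *Mmp8*, and its 1970 to 9081 counts per library compared with 26 to 229 for *Mmp8*, the collagenase of neutrophils. *Mmp20*, an enzyme of tooth enamel, had 2 to 24 counts beside the 4096 to 12573 of its neighbour *Mmp7*. *Mmp12*, the elastase of macrophages, had 124 to 1127 counts and was highest in *ApcMin* replicate 1, as were *Mmp8* and the 4 genes shown above.

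**Figure D2:**
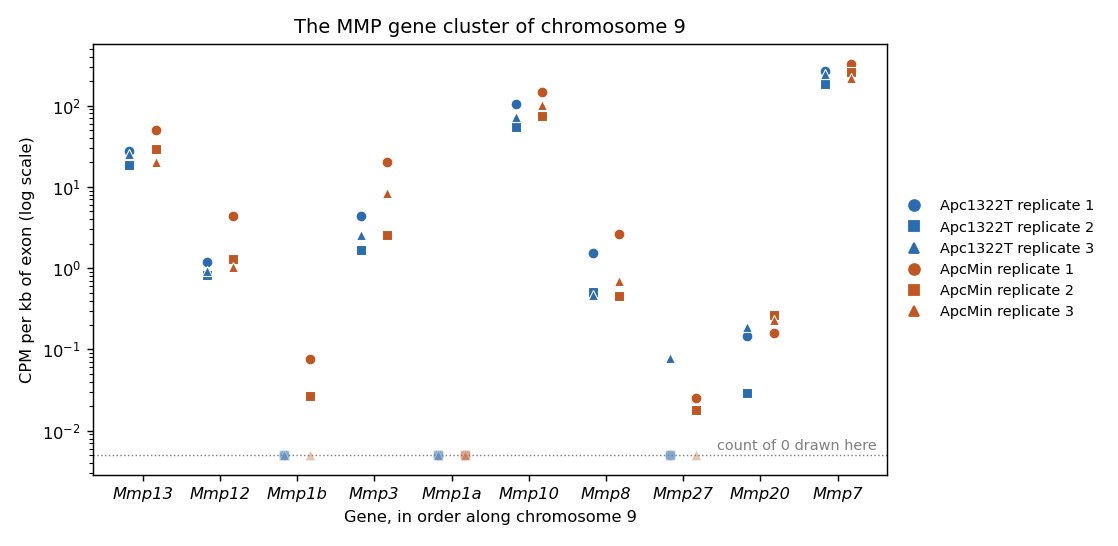
Levels of the 10 genes of the MMP cluster in their order along chromosome 9 (x axis), as CPM per kb of exon on a log axis, with 1 point per library and counts of 0 drawn on the dotted line. *Mmp7*, *Mmp10* and *Mmp13* lie above 18 CPM per kb in every library, whereas *Mmp1a*, *Mmp1b* and *Mmp27* are at or near 0.

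*Mmp2* and *Mmp9* encode the gelatinases, which cut denatured collagen and the collagen of basement membranes. *Mmp2* (chromosome 8, 92827291 to 92853420) had a log2 CPM of 5.96, 4.74 and 5.17 in *Apc1322T* replicates 1 to 3 and of 7.13, 5.60 and 6.19 in *ApcMin* replicates 1 to 3. The highest *Apc1322T* library was above the lowest *ApcMin* library, so that the genotypes overlapped. The means were 5.29 ± 0.62 and 6.31 ± 0.77 (SD, n = 3 each), and the log2 fold change (*ApcMin* over *Apc1322T*) was 1.07 ± 0.47 (standard error; 95% interval -0.080 to 2.22; edgeR adjusted p = 0.349). The adjusted p was between 0.153 and 0.726 over all alternatives, and without *ApcMin* replicate 1 the log2 fold change was 0.55.

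*Mmp9* (chromosome 2, 164940780 to 164955850) had a log2 CPM of 5.37, 3.92 and 4.32 in *Apc1322T* replicates 1 to 3 and of 6.11, 4.68 and 5.30 in *ApcMin* replicates 1 to 3. The libraries stood in the order seen for *Mmp2*, except that *Apc1322T* replicate 1 and *ApcMin* replicate 3 changed places. The genotype difference was 0.81 ± 0.49 on the log2 scale (standard error; 95% interval -0.39 to 2.01; edgeR adjusted p = 0.449). It was 0.35 without *ApcMin* replicate 1 and 1.36 without *Apc1322T* replicate 1, where the adjusted p was 0.188, the smallest of its alternatives, which reached 0.791.

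The genes with a profile most like these, by the root mean square difference of centred log2 CPM over the 6 libraries, were searched among all genes tested. For *Mmp2* they were *Col3a1*, which encodes the chain of type III collagen (0.0893), *Postn*, which encodes periostin (0.114), and *Colec12* (0.126). For *Mmp9* they were *Col5a1* (0.0909) and *Col5a2* (0.0976), which encode chains of type V collagen, and *Colec12* again (0.116). The range of *Mmp2* over the libraries was 2.39, which is a wider kind of measure than a root mean square. These genes were picked as the nearest of all genes tested over 6 libraries, so their closeness is no test of a link.

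*Mmp3*, which encodes stromelysin-1, varied most of the 10. Its counts were 214, 63 and 106 in *Apc1322T* and 1319, 116 and 481 in *ApcMin* replicates 1 to 3. On the log2 CPM scale this was 2.99, 1.62 and 2.24 against 5.21, 2.21 and 3.93, a 12.0-fold span from the lowest to the highest library. *ApcMin* replicate 2 lay below 2 of the *Apc1322T* libraries. The log2 fold change of 1.87 ± 0.76 (standard error; 95% interval 0.012 to 3.72) had an unadjusted p of 0.0489 and an adjusted p of 0.330 with edgeR. It was 0.93 without *ApcMin* replicate 1 and 2.33 without *ApcMin* replicate 2, and its adjusted p over the alternatives was 0.247 to 0.716. The nearest profiles were those of *Ctsk*, which encodes the collagen-degrading cathepsin K (0.226), *Epha3* (0.258) and *Cpxm1* (0.278).

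*Mmp10* had a log2 CPM of 7.51, 6.55 and 6.94 in *Apc1322T* and of 7.99, 7.0 and 7.47 in *ApcMin* replicates 1 to 3. Replicate 1 was the highest and replicate 2 the lowest in both genotypes, and the genotypes overlapped. Its log2 fold change was 0.49 (95% interval -0.31 to 1.28). *Mmp3* and *Mmp10* share 8.39% and 8.37% of their distinct stretches of 50 bases, the read length, with another transcript model, 140 of the 147 stretches of *Mmp3* being shared with *Mmp10*, and their estimated counts were not whole in any of the 6 libraries. The division of these shared reads by Salmon bears more on *Mmp3*, since *Mmp10* exceeded it per kb by 7.2 times (*ApcMin* replicate 1) to 32.7 times (*Apc1322T* replicate 2).

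*Mmp13*, which encodes a collagenase that cuts fibrillar collagen, had a log2 CPM of 6.23, 5.63 and 6.10 in *Apc1322T* and of 7.06, 6.30 and 5.77 in *ApcMin* replicates 1 to 3. Unlike for *Mmp2*, *Mmp9*, *Mmp3* and *Mmp10*, *ApcMin* replicate 3 was the lowest of its genotype. The log2 fold change of 0.47 ± 0.34 (standard error) was 0.051 without *ApcMin* replicate 1.

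*Mmp7*, which encodes matrilysin, had a log2 CPM of 8.17, 7.61 and 8.03 in *Apc1322T* and of 8.46, 8.11 and 7.88 in *ApcMin* replicates 1 to 3. Its whole range, 0.85, was smaller than those of the other 3 described genes of the cluster. The means were 7.93 ± 0.29 and 8.15 ± 0.29 (SD, n = 3 each), and the log2 fold change was 0.22 (95% interval -0.25 to 0.69, edgeR adjusted p = 0.604). It was 0.046 without *ApcMin* replicate 1. *Mmp7* made up between 48.7% and 58.8% of the summed CPM per kb of the 8 MMP genes. The summed level of the 7 Paneth cell markers was 10.50 to 11.30 in *Apc1322T* and 11.23 to 11.45 in *ApcMin* libraries on the log2 CPM scale. This sum was highest in *ApcMin* replicate 2 and *Mmp7* in *ApcMin* replicate 1, and both were lowest in *Apc1322T* replicate 2. The part of Paneth cells in the *Mmp7* level was not tested. All 7 Paneth markers were above the filter.

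*Mmp14* and *Mmp15* encode membrane-bound MMPs, and the enzyme of *Mmp14* activates the precursor of the *Mmp2* enzyme on the cell surface. *Mmp14* (chromosome 14, 54431612 to 54445364) had a log2 CPM of 8.37, 7.56 and 7.65 in *Apc1322T* and of 8.17, 7.64 and 7.98 in *ApcMin* replicates 1 to 3. Its highest library was *Apc1322T* replicate 1, and its log2 fold change of 0.042 (95% interval -0.55 to 0.64) had no stable direction with single libraries left out. Without *Apc1322T* replicate 1 it was 0.35. *Mmp15* (chromosome 8, 95352268 to 95375080) had the smallest range of the 10, 0.42, with a log2 CPM between 6.70 and 7.12. It ran against the common order, with *ApcMin* replicate 2 and *Apc1322T* replicate 2 highest. Its log2 fold change was -0.047 (95% interval -0.38 to 0.28) and became 0.012 with upper-quartile normalisation.

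*Timp1*, which encodes a secreted inhibitor, stood apart in a single library. Its counts were 572, 331 and 400 in *Apc1322T* and 2508, 390 and 513 in *ApcMin* replicates 1 to 3, or 4.40, 3.98 and 4.14 against 6.13, 3.95 and 4.03 as log2 CPM. *ApcMin* replicates 2 and 3 lay within or below the *Apc1322T* libraries. The log2 fold change of 0.91 ± 0.62 (standard error; edgeR adjusted p = 0.497) turned to -0.20 without *ApcMin* replicate 1, and its adjusted p over the alternatives was 0.420 to 0.791. The nearest profiles were those of *AB124611* (0.105), *Clec5a*, which encodes a receptor of myeloid cells (0.129), and *Lif*, which encodes a cytokine of the interleukin-6 family (0.135). *Timp1* lies on chromosome X (20870166 to 20874735) within the oppositely transcribed *Syn1*, as *Timp3* lies within *Syn3* on chromosome 10 (86300372 to 86349506), and the libraries were made with a stranded kit.

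*Timp3*, which encodes an inhibitor that stays bound to the matrix, did not follow *Timp1*. Its log2 CPM was 6.01, 5.70 and 5.85 in *Apc1322T* and 5.71, 6.23 and 5.91 in *ApcMin* replicates 1 to 3, so that *ApcMin* replicate 1 was the lowest of its genotype. The log2 fold change was 0.11 (95% interval -0.25 to 0.48) and was -0.041 without *ApcMin* replicate 2. The summed CPM per kb of the 8 MMP genes was 7.92 times that of *Timp1* and *Timp3* in *ApcMin* replicate 1. In the other 5 libraries it was 13.5 to 17.4 times.

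**Figure D3:**
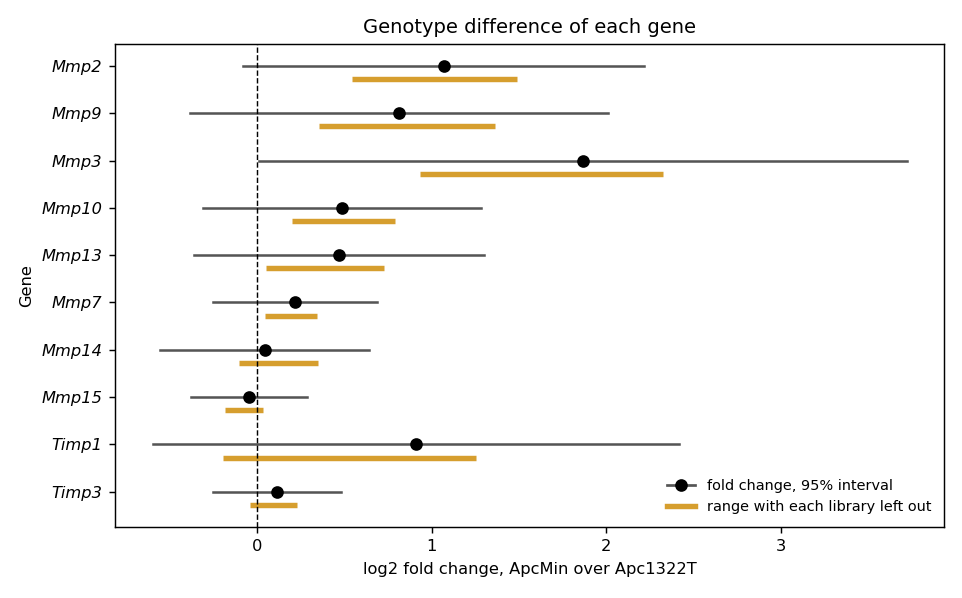
Log2 fold change of each gene between genotypes (x axis; above 0 is higher in *ApcMin*), with the 95% interval of edgeR's quasi-likelihood test as a grey line and the range over the 6 fits that leave out 1 library as a yellow bar. The interval holds 0 for 9 of the 10 genes, and the yellow bar crosses 0 for *Mmp14*, *Mmp15*, *Timp1* and *Timp3*.

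The log2 fold change was above 0 for 9 of the 10 genes, against 52.4% of all genes tested, with a median of 0.48 against 0.017 over all genes. Without *ApcMin* replicate 1 the median of the 10 was 0.12. The 10 genes were chosen with earlier results of these data known, so this count and median are no test of the family. The other 17 genes of the MMP and TIMP families were given the same comparison. *Mmp1a*, *Mmp1b*, *Mmp16*, *Mmp21*, *Mmp27* and *Timp4* were under the filter, and of the 11 tested 10 had a log2 fold change above 0 (median 0.65). None passed the threshold, the smallest edgeR adjusted p being 0.279. An unadjusted p under 0.05 was found for 3, all higher in *ApcMin* (7.49% of all genes in this direction). In *Mmp11*, *Mmp17*, *Mmp19* and *Timp2* all 3 *ApcMin* libraries lay above the 3 *Apc1322T* libraries (11.0% of all genes did so).

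*Timp2*, which encodes the inhibitor that links *Mmp14* to the precursor of *Mmp2*, had a log2 CPM of 5.62, 5.0 and 5.20 in *Apc1322T* and of 6.41, 5.77 and 6.00 in *ApcMin* replicates 1 to 3. The genotype difference was 0.79 ± 0.22 on the log2 scale (standard error), with an adjusted p of 0.279 from edgeR and of 0.0508 from DESeq2. The order of replicates within each genotype was that of *Mmp2*, but without overlap between the genotypes. The log2 fold change was 0.92 ± 0.32 for *Mmp19*, 0.72 ± 0.32 for *Mmp17* and 0.65 ± 0.26 (standard errors) for *Mmp11*, whose enzyme is a stromelysin.

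Among 17 activators and other inhibitors of MMPs, *Plg* (plasminogen) had at most 2 counts per library and was not tested. Of the other 16, none passed the threshold (0 at an adjusted p under 0.01, 5 at an unadjusted p under 0.05 in edgeR's test, 3 higher and 2 lower in *ApcMin*, against 15.1% of all genes), and 11 had a log2 fold change above 0 (median 0.47). *Pcsk5*, which encodes a proprotein convertase, was lower in all 3 *ApcMin* libraries (6.46, 6.27 and 6.46 against 6.70, 6.98 and 6.90 log2 CPM; log2 fold change -0.47 ± 0.11; adjusted p = 0.257 with edgeR and 0.0228 with DESeq2). *Bsg*, which encodes the MMP inducer basigin, was also lower in all 3 (log2 fold change -0.26 ± 0.10). *Reck*, a membrane inhibitor of MMPs, and *A2m*, a plasma protease trap, were higher in all 3, by 0.77 ± 0.26 and 1.97 ± 0.65. Among 17 matrix proteins that MMPs cut, 16 had a log2 fold change above 0 (median 0.72) and 0 were called by edgeR. An unadjusted p under 0.05 was found for 1, higher in *ApcMin* (7.49% of all genes in this direction). This was *Lama5*, a laminin chain, which was higher in all 3 *ApcMin* libraries (log2 fold change 0.82 ± 0.20; adjusted p = 0.263 with edgeR and 0.0178 with DESeq2).

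The levels of matrix genes and of some cell type markers moved with the common order of libraries, and those of others did not. *ApcMin* replicate 1 was the highest library for 14 of the 17 matrix genes and *Apc1322T* replicate 2 the lowest for 15. The summed level of the 8 fibroblast markers was 8.38 to 8.84 in *Apc1322T* and 8.85 to 9.20 in *ApcMin* libraries on the log2 CPM scale, and 5 of the 8 were higher in all 3 *ApcMin* libraries (11.0% of all genes). *Fbln1*, which encodes fibulin-1, went the other way and was lower in all 3 (log2 fold change -0.52 ± 0.14). That of the 7 macrophage markers was 6.51 to 6.94 and 6.91 to 7.95, and 6 of the 7 had an unadjusted p under 0.05, all higher in *ApcMin* (7.49% of all genes). That of the 7 neutrophil markers, of which *Mpo* (at most 10 counts in a library) was under the filter, was 3.13 to 5.17 and 3.62 to 6.71. Each of these 3 sums, and that of the 6 endothelial markers (7.15 to 7.70 and 7.55 to 8.02), was highest in *ApcMin* replicate 1 and lowest in *Apc1322T* replicate 2. The sum of the 6 smooth muscle markers (6.99 to 8.0 and 8.11 to 8.65) was also lowest in *Apc1322T* replicate 2 but highest in *ApcMin* replicate 2, as was that of the Paneth cell markers. The epithelial sum was highest in *Apc1322T* replicate 3 and lowest in *ApcMin* replicate 3. *ApcMin* replicate 1 was the highest library for 0 of the smooth muscle, Paneth cell and epithelial markers. The part of these cells in the MMP and TIMP levels was not tested.

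The 10 genes were also expressed relative to the mean log2 CPM of the fibroblast markers in the same library. The range over the 6 libraries then went from 2.39 to 1.08 for *Mmp2*, from 2.19 to 0.96 for *Mmp9* and from 1.44 to 0.71 for *Mmp10*. It was 1.07 in place of 1.43 for *Mmp13*, 2.53 in place of 3.59 for *Mmp3* and 1.89 in place of 2.19 for *Timp1*. For the other 4 it was wider, from 0.85 to 0.89 for *Mmp7*, from 0.80 to 0.92 for *Mmp14*, from 0.42 to 1.61 for *Mmp15* and from 0.53 to 1.30 for *Timp3*. The difference of the genotype means stayed above 0 for *Mmp2* (1.02 and 0.27), *Mmp9* (0.83 and 0.077) and *Mmp3* (1.5 and 0.75). It turned below 0 for *Mmp10* (0.49 and -0.27), *Mmp13* (0.39 and -0.36), *Mmp7* (0.22 and -0.54), *Mmp14* (0.073 and -0.68), *Timp1* (0.53 and -0.22) and *Timp3* (0.10 and -0.65), and went from -0.054 to -0.81 for *Mmp15*. The fibroblast mean was itself higher in the *ApcMin* libraries. Relative to the mean of the neutrophil markers, the range was narrower than that of the level for *Mmp2* (1.22), *Mmp9* (1.32), *Mmp3* (1.68) and *Timp1* (1.43). It was wider for the other 6, between 1.80 for *Mmp10* and 3.53 for *Mmp15*. For neither list was the share of all genes with a narrower range computed, so a narrower range is no test of a cell source.

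**Figure D4:**
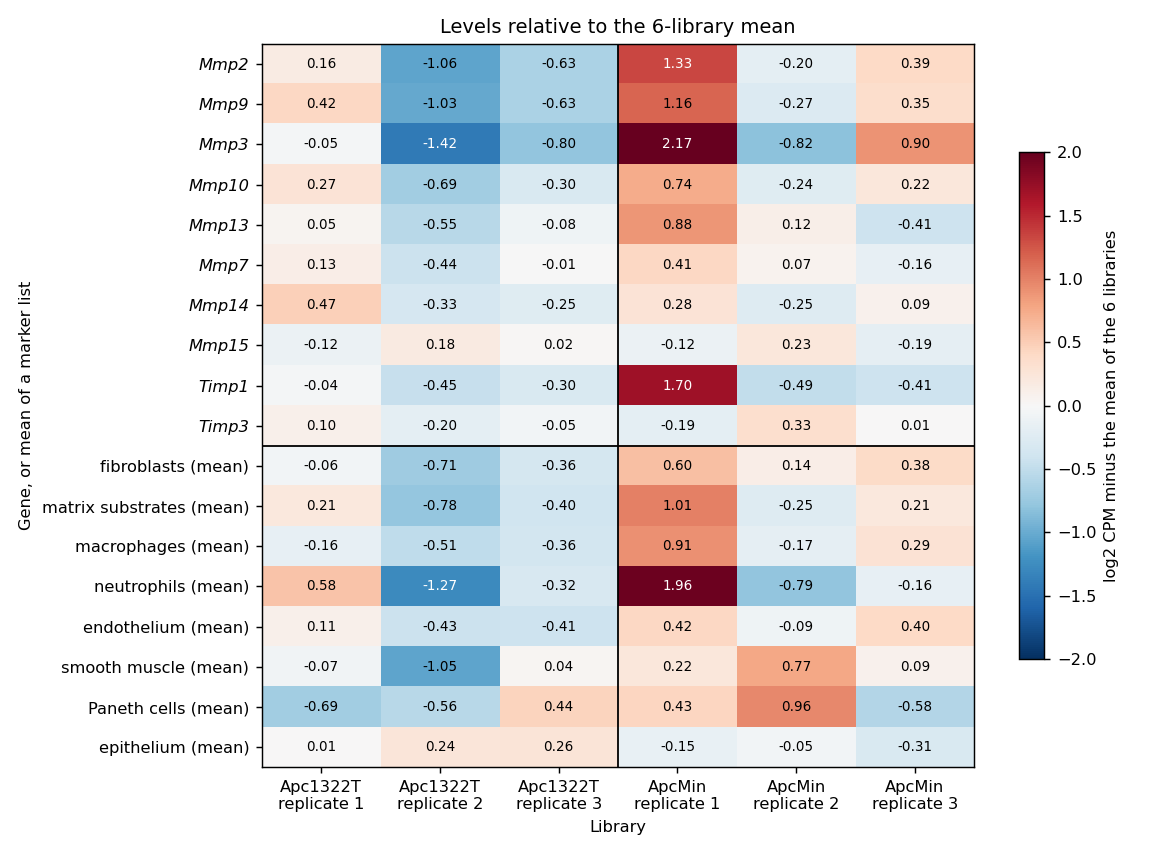
Log2 CPM minus the mean of the 6 libraries (colour and printed value) for the 10 genes and, under the line, for the means of the matrix gene list and of marker lists of cell types, with libraries as columns. The *ApcMin* replicate 1 column is the highest for *Mmp2*, *Mmp9*, *Mmp3*, *Mmp10*, *Mmp13*, *Mmp7* and *Timp1*. It is also the highest for the fibroblast, matrix, macrophage, neutrophil and endothelial means, while *Mmp15* and *Timp3* show little colour.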

How the data were processed

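RNA was sequenced from adenomas of 3 *ApcMin* and 3 *Apc1322T* mice with a directional kit, as stranded single-end reads of 50 bases. Transcript abundances came from Salmon and the GRCm38 transcriptome and were imported with tximport. What the authors deposited are estimated counts per gene, without normalisation. The submitters' processing notes also name DESeq2. Of 34866 rows, 34582 matched a symbol in the GENCODE annotation.

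Here the estimated counts were rounded, filtered with filterByExpr (minimum count 10, minimum total 15) and normalised by TMM. Genotypes were compared over all genes by the quasi-likelihood F test of edgeR 4.0.16 with robust estimation (R 4.3.3). P-values were adjusted by Benjamini and Hochberg, with 0.01 as the threshold. A positive log2 fold change is higher in *ApcMin*, and its standard error is its size divided by the root of F. Log2 CPM used a prior count of 2. CPM per kb used the length of the merged exons of a gene. DESeq2 1.42.0, limma-voom (limma 3.58.1), other size factors, other filters, a replicate block and the omission of each library were alternatives. The test was tested on simulated data. Intervals and p-values rest on the variation between these libraries, which edgeR estimates for each gene partly from all genes tested. Limits from 3 counts cover counting error only.

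The named genes were the 10 members, up to 5 genes of each of 3 related lists whose genotypes did not overlap, the genes of those lists under the filter, and the 3 nearest profiles of each member with a range above 2 log2 units. *Mmp8*, *Mmp12* and *Mmp20* were named as neighbours in the cluster. Single markers were named because they were under the filter or, for *Krt14* and *Fbln1*, for their own values. All of these were named after their values were seen. The members and lists were chosen with earlier results of these data known. No library was a copy of another (chi-square per gene at least 23.3 between any pair).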

Additional observations from a re-analysis of the deposited data

How the results depend on the processing

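The 10 genes were refitted with other normalisations, tests and filters and with single libraries omitted. The count of members called at an adjusted p under 0.01 was 0 in all of these fits and at an adjusted p under 0.05. The count over all genes was 0 in edgeR's quasi-likelihood test, 194 with DESeq2's Wald test, 1 without the filter on low counts, 1 at an adjusted p under 0.05, and 0 to 1 with single libraries omitted. Of 140 refitted values of single members, 131 kept their direction and 9 did not. *Mmp14* was -0.11 without *Apc1322T* replicate 2, -0.074 without *Apc1322T* replicate 3 and -0.086 without *ApcMin* replicate 1. *Mmp15* was 0.012 with upper-quartile normalisation, and 0.033, 0.0023 and 0.031 without *Apc1322T* replicate 2, *ApcMin* replicate 1 and *ApcMin* replicate 3. *Timp1* was -0.20 without *ApcMin* replicate 1 and *Timp3* was -0.041 without *ApcMin* replicate 2. With single libraries omitted, the log2 fold change was -0.11 to 0.35 for *Mmp14*, -0.19 to 0.033 for *Mmp15*, -0.20 to 1.25 for *Timp1* and -0.041 to 0.23 for *Timp3*. The cause was not tested.

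No mouse gave a library to both genotypes. Deviations from the genotype means correlated at -0.014, 0.16 and -0.29 between *Apc1322T* and *ApcMin* libraries of equal replicate number. Between those of unequal number the correlations were -0.36 to 0.33. The 3 deviations of a genotype sum to 0 for each gene, so these values cannot decide whether libraries of equal number vary together. Among the 10 genes, replicate 1 was highest in its genotype for 9 in *Apc1322T* and 8 in *ApcMin* adenomas. With the replicate number as a block in edgeR's test, the count called was 0 genes and 0 members. An unadjusted p under 0.05 was found for 4 members (*Mmp2*, *Mmp3*, *Mmp9* and *Mmp10*) and for 2113 of 16536 genes. The smallest adjusted p of a member in this fit was 0.348. With 3 libraries of each genotype an exact permutation test allows no p under 0.10. Depth did not limit the 10 genes, whose lowest count was 63, but no fold is given for genes under the filter.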
